A study of Mus musculus with 40 samples.

Results

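The effect of *Gpr3* overexpression on brown adipose tissue (BAT) of chow-fed mice was set against the effect of the β3-adrenergic agonist CL-316,243 (CL), gene by gene. The quantity tested was a difference of differences, the log2 fold change of C-3BO mice over their control littermates minus the log2 fold change of CL mice over saline mice. All chow libraries entered it, 20 of the 40 of the series, and 12859 of the 20295 listed genes had enough counts to be tested. A positive difference means that the C-3BO effect lay above the CL effect, and a negative difference that it lay below.

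The 4 groups held 5 male mice each, kept at thermoneutrality on chow. C-3BO mice carry the *Gpr3* TTG allele, a *Gpr3* transgene behind the CAG promoter in the *Rosa26* locus, which *Ucp1*-Cre switches on in brown and beige adipocytes, and they were not injected. Their controls were littermates with a heterozygous *Gpr3* TTG allele and no Cre, or with Cre and no *Gpr3* TTG allele, and this cohort was 13 to 19 weeks old. CL at 1 mg/kg or saline was given once a day for 9 days to 15-week-old control littermates of the inducible I-3BO line, and the tissue was collected on the day after the last injection. *Ucp1*-Cre acts from the time brown adipocytes arise, so that the C-3BO mice had lived with the receptor for their whole adult life, whereas CL acted for days. The cohorts differ in age range, in line and in handling, and each has controls of its own. Genotype against drug, length of exposure and cohort cannot be told apart in this design. The labels give each library a group and a replicate number, and replicates are read here as separate mice. The p-values measure the spread between them.

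Norepinephrine and CL act on brown adipocytes through β-adrenergic receptors, which couple to the stimulatory G protein Gs and raise cAMP. Protein kinase A then drives lipolysis and, through CREB and other factors, the transcription of thermogenic genes such as *Ucp1*. GPR3 couples to Gs without a ligand, so its activity follows the amount of receptor made, and a ligand-activated receptor such as ADRB3 instead depends on the agonist and can be desensitized.

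Counts per library lay between 7453294 and 15260516, and the level that 3 counts stand for lay between 0.193 and 0.430 CPM (counts scaled to a common library size, with edgeR's TMM factors), a limit that covers counting error only. The most abundant gene of a library made up 13.4% of its counts at most. Within a group, log2 CPM of pairs of mice correlated across genes at 0.952 to 0.985, and no pair agreed within sampling noise. Liver RNA was low, with *Alb* at 1.53 CPM at most, and the epididymal transcript *Lcn8* had no count. *Cidea*, a brown adipocyte marker, stood between 1602 and 3167 CPM in all 20 libraries.

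Skeletal muscle RNA varied between mice and groups. The 46 muscle markers together held 0.154% to 1.69% of CPM in control mice, with a median of 1.43%, and 0.0901% to 0.779% in C-3BO mice, with a median of 0.262%. In saline mice they held 0.0095% to 0.459%, with a median of 0.196%, and in CL mice 0.0107% to 0.0385%, with a median of 0.0242%. Mean *Acta1*, skeletal muscle actin, was 1671 CPM in control, 516.1 in C-3BO, 220.2 in saline and 14.5 in CL mice. The C-3BO effect lowered 12 of the 46 markers and the CL effect 30, and none passed the test of the difference (6 at an unadjusted p under 0.05, 1 called by DESeq2), where 37 had a positive value and the median was 1.84. The chow comparisons were therefore also fitted with the muscle score of each library (its mean log2 CPM over these markers) as a covariate, and none of the genes called in the difference belonged to the muscle list.

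*Gpr3* itself (NM_008154, chr4:132765255-132768451 of mm9) stood at 423, 251, 355, 437 and 305 CPM in C-3BO replicates 1 to 5. In control mice it was at 0.703, 0.0954, 0.312, 0.579 and 0.125 CPM, in saline mice at 0.207, 0.212, 0.0848, 0.0974 and 0.160 CPM, and in CL mice at 0.277, 0.674, 8.67, 0.136 and 0.242 CPM. C-3BO mice lay above all other mice, and the values of the remaining groups were near the limit of detection except for CL replicate 3. The C-3BO effect was 9.74 on the log2 scale (adjusted p = 1.09e-08) and the CL effect 3.62 (adjusted p = 0.036), but the latter was 0.96 (adjusted p = 0.380) without CL replicate 3. The difference of the effects was 6.12 (SE 2.49, adjusted p = 0.169) with all mice and 8.76 (adjusted p = 1.085e-04) without that mouse.

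*Ucp1* and *Elovl3*, textbook readouts of an activated brown adipocyte, rose under both conditions, and their difference did not pass the test. *Ucp1*, the uncoupling protein that makes heat, was at 1086, 1220, 1168, 1274 and 1046 CPM in control mice and at 5507, 5085, 7029, 6674 and 6029 CPM in C-3BO mice. It was at 1784, 1648, 1201, 1622 and 1668 CPM in saline mice and at 6351, 7256, 5634, 8447 and 1538 CPM in CL mice. C-3BO and control mice did not overlap, and CL replicate 5 alone among the CL mice lay within the saline range. The C-3BO effect on *Ucp1* was 2.39 and the CL effect 1.88, and the difference was 0.50 (SE 0.36, adjusted p = 0.477). Without CL replicate 5 it was 0.26 (adjusted p = 0.487). *Elovl3*, an elongase of very long chain fatty acids, had the larger CL effect, 5.27 against 3.96, with a difference of -1.31 (SE 0.49, adjusted p = 0.129). Saline mice held less of it than control mice, 4.86 ± 3.23 against 29.2 ± 7.46 CPM (SD, n = 5), whereas the treated groups held 189 ± 57.3 with CL and 453 ± 79.8 with C-3BO. *Dio2*, the deiodinase that makes active thyroid hormone, passed with C-3BO (1.58, adjusted p = 0.024) and not with CL (0.73, adjusted p = 0.366). The C-3BO call of *Dio2* was lost in 2 of the 20 fits without 1 mouse, and its difference was 0.85 (SE 0.71, adjusted p = 0.553). *Ppargc1a*, a coactivator of mitochondrial genes, passed in neither arm (C-3BO 0.05, adjusted p = 0.82, CL 0.12, adjusted p = 0.641). Its difference was -0.07 (SE 0.21, adjusted p = 0.897).

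Against the shared rise of *Ucp1* and *Elovl3*, 300 genes had a higher and 269 a lower C-3BO effect, 2.33% and 2.09% of the tested genes. These were called by edgeR's quasi-likelihood test at a Benjamini-Hochberg adjusted p under 0.05. An unadjusted p under 0.05 was reached by 2524 genes. For comparison, the C-3BO effect by itself called 2013 genes higher (15.7%) and 1805 lower (14%), and the CL effect 999 higher (7.77%) and 671 lower (5.22%). These shares are the background against which the counts of every list below have to be read. When libraries were scaled by their totals alone, the share of higher calls in the difference fell from 52.7% to 30.1%. That scaling moved the median of all tested genes from -0.02 to -0.23 for the C-3BO effect, from -0.02 to -0.15 for the CL effect and from 0.00 to -0.08 for the difference. All differences below are relative to the TMM scaling, and 413 genes were called in the same direction with both. With the muscle score as a covariate, 291 of the 300 and 268 of the 269 genes were still called in the same direction.

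**Figure D1:**
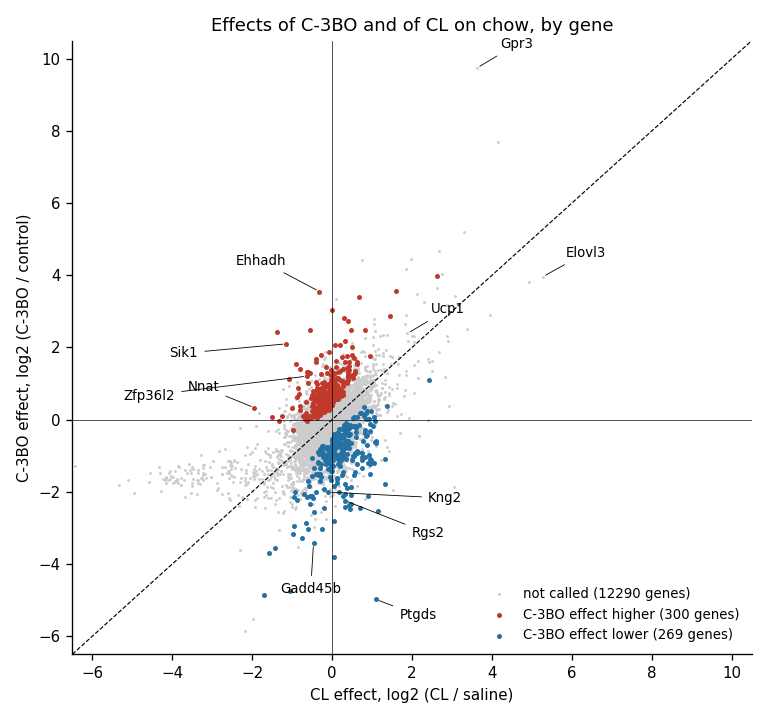
Effect of C-3BO over control (vertical axis, log2) against the effect of CL over saline (horizontal axis, log2) for each of the 12859 tested genes on chow, with the genes called in the difference in red (300, above the dashed line of equal effects) and blue (269, below it). *Ucp1*, *Elovl3* and *Gpr3* lie far to the upper right and are not called, *Ehhadh* rises with C-3BO alone, and *Ptgds* falls with C-3BO alone.

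Most called genes moved with C-3BO and did not pass the test with CL. Of the 300 genes with a higher difference, 230 rose with C-3BO alone, 33 fell with CL alone, 18 rose with both, 13 rose with C-3BO and fell with CL, and 6 passed in neither. The 269 with a lower difference comprised 197 that fell with C-3BO alone and 38 that rose with CL alone. Another 14 fell with C-3BO and rose with CL, 10 fell with both, 3 rose with both, and 7 passed in neither. Differences were smaller among the higher genes, with a median of 0.76 and 94 of them over 1, than among the lower ones, with a median of -1.05 and 143 of them beyond -1. Passing in 1 arm alone is not the basis of any of these calls, since the difference itself was tested.

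Because the difference joins 4 groups, it can also be read as a gap between the treated groups (C-3BO against CL) and an opposite gap between the control groups (control against saline). Among the 300 higher genes the median treated gap was 0.35 and the median control gap -0.40, and the control gap was the larger in 175. Among the 269 lower genes the medians were -0.61 and 0.42, and the treated gap was the larger in 168. The gaps had opposite signs in 274 of the 300 and 236 of the 269. In those genes a part of the difference sat between the control groups, which belong to different cohorts. Among the called genes named below, the control gap exceeded the treated gap in size for *Sesn2* (-1.65 against 0.42), *Aldoc* (1.91 against -0.64), *Mmd2* (-1.98 against 1.07) and others. Without CL replicate 5, the mouse whose *Ucp1* was low, 214 genes were higher and 190 lower.

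**Figure D2:**
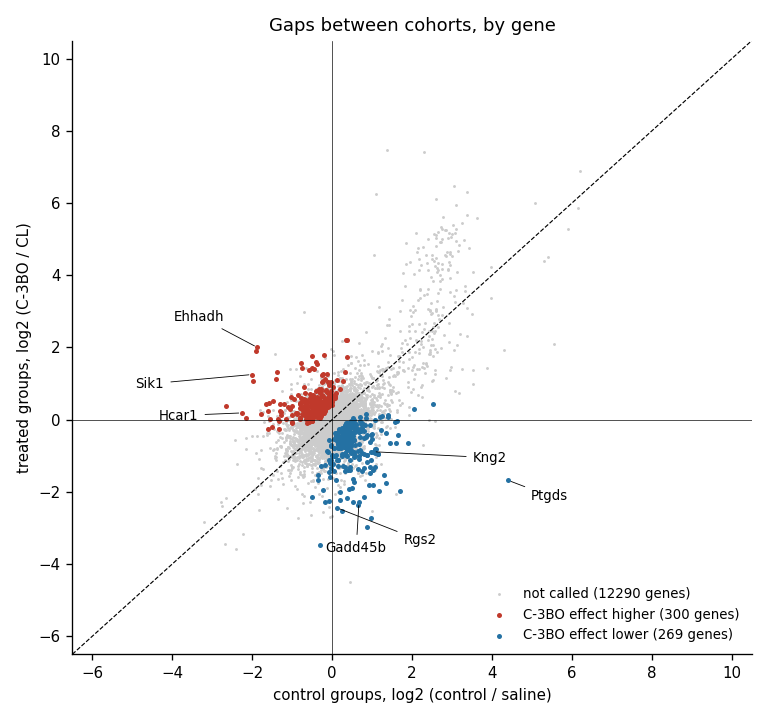
Gap between the treated groups (vertical axis, log2 C-3BO over CL) against the gap between the control groups (horizontal axis, log2 control over saline) for each tested gene on chow, with called genes in red (300 higher) and blue (269 lower). The 274 red genes and 236 blue genes with gaps of opposite sign fill the upper left and lower right, and *Ptgds* stands out by its control gap, *Rgs2* by its treated gap.

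The receptors and enzymes that make and break down cAMP showed little difference as lists. Of 14 tested genes of cAMP production and β-adrenergic receptors, with the overexpressed *Gpr3* among them, 1 was called higher and none lower. The median difference was 0.21. Of 28 genes of cAMP breakdown and damping, 1 was called higher and 1 lower, with a median of 0.09. DESeq2 called 2 genes of the first list and 3 of the second. Over all tested genes edgeR called 2.33% higher and 2.09% lower, and the median difference was 0.00. *Adrb3* (chr8:28336248-28340060), the receptor of CL, was at 229, 213, 194, 225 and 291 CPM in control and 333, 428, 365, 373 and 247 CPM in C-3BO mice. In saline mice it was at 492, 288, 338, 423 and 318 CPM and in CL mice at 239, 236, 287, 265 and 342 CPM. The ranges overlapped within each cohort. *Adrb3* rose with C-3BO by 0.60 (adjusted p = 0.0062), its CL effect was -0.44 (adjusted p = 0.0649), and the difference was 1.04 (SE 0.22, adjusted p = 0.0104). The difference for *Adrb1* was 0.67 (SE 0.27, adjusted p = 0.156), and *Adcy3*, an adenylyl cyclase, rose by 0.76 and 0.84 with a difference of -0.08 (SE 0.31, adjusted p = 0.917). *Arrb1*, a β-arrestin that uncouples receptors from G proteins, rose with C-3BO by 0.73 and had a difference of 0.81 (SE 0.18, adjusted p = 0.0125).

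*Rgs2* and *Sik1*, which are both known to be induced by cAMP, moved in opposite directions. RGS2 speeds up the inactivation of G proteins, and SIK1 is a kinase that holds back the CREB coactivators. The 250 bases before their transcription start sites are shown, as mm9 gives them on the minus strand on which both genes lie, because the core letters of the cAMP response element recur in both. Capitals mark TGACG on either strand. The *Sik1* stretch is chr17:31992738-31992987, with 4 matches, and the *Rgs2* stretch chr1:145851280-145851529, with 2.
Sik1: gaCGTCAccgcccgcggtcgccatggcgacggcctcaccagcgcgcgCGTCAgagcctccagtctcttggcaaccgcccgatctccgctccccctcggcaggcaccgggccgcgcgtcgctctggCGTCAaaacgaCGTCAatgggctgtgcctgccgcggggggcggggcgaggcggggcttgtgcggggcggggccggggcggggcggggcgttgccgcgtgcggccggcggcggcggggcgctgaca
Rgs2: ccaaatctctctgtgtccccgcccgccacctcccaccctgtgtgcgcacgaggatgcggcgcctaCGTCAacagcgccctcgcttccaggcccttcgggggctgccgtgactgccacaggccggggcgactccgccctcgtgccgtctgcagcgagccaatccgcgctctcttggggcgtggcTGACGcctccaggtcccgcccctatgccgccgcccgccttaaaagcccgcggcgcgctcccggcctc
TGACG occurred in 21.2% of the stretches of all 20292 listed genes with sequence and in 26.4% of those tested. It occurred in 28.3% (85) of the genes with a higher and in 22.3% (60) of those with a lower difference. The full element TGACGTCA was present in 2.33% (7) and 2.23% (6) of them, against 2.64% of the tested genes. These letters describe the windows and are not evidence of binding.

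*Rgs2* (NM_009061, chr1:145846468-145851279) was at 356, 399, 304, 420 and 329 CPM in control mice and at 74.4, 94.3, 74.9, 102 and 35.8 CPM in C-3BO mice. It was at 409, 187, 291, 355 and 421 CPM in saline mice and at 523, 356, 263, 494 and 441 CPM in CL mice. Every C-3BO mouse was below every other mouse, and saline and CL mice overlapped. The C-3BO effect was -2.24 (adjusted p = 1.61e-06), the CL effect 0.32 (adjusted p = 0.401) and the difference -2.56 (SE 0.34, adjusted p = 2.21e-04). The controls differed by only 0.12 on the log2 scale, so that this difference lay in the treated groups.

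*Sik1* (NM_010831, chr17:31981195-31992737) was at 24.9, 19.2, 15.1, 17.8 and 14.1 CPM in control and at 57.8, 81.2, 56.3, 124 and 72.5 CPM in C-3BO mice. In saline mice it was at 181, 45.8, 96.8, 28.6 and 13.98 CPM and in CL mice at 23.6, 20.9, 45.4, 40.2 and 34.5 CPM. C-3BO and control mice did not overlap, whereas the CL mice lay within the wide saline range. The C-3BO effect was 2.10 (adjusted p = 0.00163), the CL effect -1.15 (adjusted p = 0.0879) and the difference 3.25 (SE 0.63, adjusted p = 0.0062), which was 2.57 (adjusted p = 0.0104) without the highest saline mouse. Control mice lay below saline mice by 2.00 on the log2 scale. *Sik1* was the only called gene of the 23 tested immediate early genes that respond to cAMP, a list in which both conditions lowered more members than they raised. C-3BO lowered 5 of them and raised 1, CL lowered 8, and the median effects were -0.61 and -0.70. Over all tested genes the difference was called higher for 2.33% and lower for 2.09%.

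Several enzymes of peroxisomal fatty acid oxidation had larger C-3BO effects. Of the 30 tested genes of fatty acid oxidation, 22 rose and 1 fell with C-3BO, and 19 rose and 2 fell with CL. The difference called 5 higher and none lower (2.33% and 2.09% over all tested genes). The median difference of the list was 0.11, with 16 members positive and 14 negative. With library totals 4 were called higher and 2 lower, and the median was 0.02. The fits without 1 mouse called 4 to 6 higher and 0 to 2 lower. *Ehhadh* (NM_023737, chr16:21761358-21787907), the bifunctional enzyme of peroxisomal β-oxidation, was at 43.9, 43.3, 34.2, 45.5 and 41.8 CPM in control and at 960, 329, 488, 547 and 124 CPM in C-3BO mice. Saline mice held 237, 69.9, 90.6, 139 and 227 CPM and CL mice 65.2, 70.4, 259, 116 and 102 CPM. The C-3BO and control mice did not overlap, and the saline and CL mice did. Its C-3BO effect was 3.55 (adjusted p = 1.07e-05), its CL effect -0.32 (adjusted p = 0.668) and the difference 3.87 (SE 0.62, adjusted p = 0.0012). Here control mice lay below saline mice by 1.87 and C-3BO above CL mice by 2.00.

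*Acaa1b*, a peroxisomal thiolase, rose in both arms, from 16.2 ± 3.03 to 120 ± 35.3 CPM with C-3BO and from 26.1 ± 9.95 to 71.2 ± 17.7 CPM with CL (SD, n = 5). The difference was 1.44 (SE 0.31, adjusted p = 0.0121). Its paralog *Acaa1a* is nearly identical, and how reads were divided between them is not known here. The carnitine acetyltransferase *Crat* had a difference of 0.77 (SE 0.22, adjusted p = 0.0465), which was lost in 17 of the 20 fits that left out 1 mouse (adjusted p up to 0.0868).

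Of 21 tested genes of triglyceride synthesis and lipid droplets, 13 rose with C-3BO and 6 with CL, and the difference called 4 higher and none lower (2.33% and 2.09% over all tested genes), with a median of 0.31. *Fitm2*, which helps lipid droplets to bud from the endoplasmic reticulum, had the lowest p, with a difference of 1.07 (SE 0.17, adjusted p = 9.27e-04), a C-3BO effect of 0.80 and a CL effect of -0.27. *Plin5*, a coat protein that ties droplets to mitochondria, had a difference of 0.78 (SE 0.20, adjusted p = 0.027). *Bscl2*, which encodes the droplet assembly protein seipin and overlaps *Gng3* on the opposite strand, had 0.69 (SE 0.18, adjusted p = 0.0324), and *Dgat1*, the enzyme of the last step of triglyceride synthesis, 0.57 (SE 0.16, adjusted p = 0.0427). *Bscl2* lost its call in 8 and *Dgat1* in 14 of the 20 fits without 1 mouse. The count of 4 was 2 with library totals, 1 without CL replicate 2 and 2 without control replicate 1, 2 or 4, C-3BO replicate 4, saline replicate 4 or 5 or CL replicate 1.

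Among the genes of lipolysis and fatty acid uptake 1 of 20 was called higher and 1 lower (2.33% and 2.09% over all tested genes). *Acsl1*, which activates fatty acids to acyl-CoA, had a difference of 1.06 (SE 0.25, adjusted p = 0.0197), and *Fabp5*, a fatty acid binding protein, one of -0.96 (SE 0.26, adjusted p = 0.038, lost in 12 of the 20 fits without 1 mouse), having risen by 1.04 with CL and by 0.08 (adjusted p = 0.764) with C-3BO. The lipases *Pnpla2* and *Lipe* had differences of 0.37 (SE 0.16, adjusted p = 0.180) and 0.24 (SE 0.15, adjusted p = 0.421). *Hcar1*, the Gi-coupled lactate receptor that restrains lipolysis in adipocytes, was at 24.7, 11.4, 22.9, 31.0 and 33.8 CPM in control and 84.6, 66.4, 64.2, 91.8 and 55.1 CPM in C-3BO mice. In saline mice it was at 150, 85.6, 75.4, 113 and 167 CPM and in CL mice at 47.3, 49.2, 98.7, 81.4 and 41.4 CPM. C-3BO and control mice did not overlap, and saline and CL mice did. *Hcar1* rose with C-3BO (1.55, adjusted p = 3.21e-04) and fell with CL (-0.89, adjusted p = 0.0323), with a difference of 2.44 (SE 0.39, adjusted p = 0.0012), of which a control gap of -2.25 made up most. De novo lipogenesis, the synthesis of fatty acids from glucose, showed none of this. Of its 23 tested genes 11 rose with C-3BO and 9 with CL, the median effects were 0.53 and 0.51, and no difference was called by edgeR or DESeq2, 2 having an unadjusted p under 0.05, with *Fasn* at 0.36 (SE 0.35, adjusted p = 0.623) and *Acly* at -0.52 (SE 0.45, adjusted p = 0.567).

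**Figure D3:**
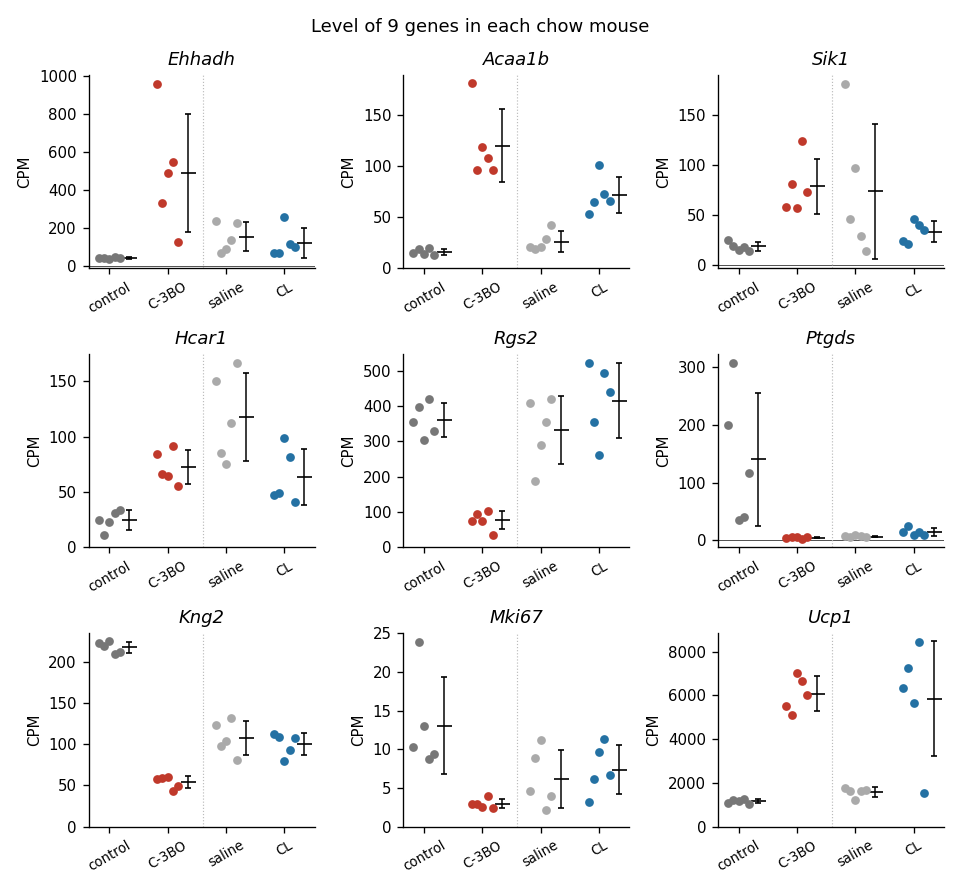
CPM of 9 genes in each of the 20 chow mice (points), with group means and SD (bars), for the C-3BO cohort on the left of each dotted line and the injected cohort on the right. *Ehhadh*, *Sik1* and *Hcar1* rise from control to C-3BO mice and not from saline to CL mice, *Rgs2*, *Ptgds*, *Kng2* and *Mki67* fall with C-3BO only, *Acaa1b* and *Ucp1* rise in both cohorts with CL replicate 5 at 1538 CPM, and the control and saline groups stand at different levels for *Ptgds*, *Hcar1*, *Sik1* and others.

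In the thermogenesis list, 14 of 30 genes rose and 3 fell with C-3BO, and 9 rose with CL. The difference called 3 higher and 1 lower (2.33% and 2.09% over all tested genes), with a median of 0.13. *Otop1*, a proton channel of brown fat, rose by 1.72 and 0.54 (difference 1.18, SE 0.23, adjusted p = 0.00582). The fatty acid transporters *Slc27a2* and *Slc27a1* had differences of 1.28 (SE 0.32, adjusted p = 0.0292) and 1.23 (SE 0.34, adjusted p = 0.0407). *Cox7a1*, a cytochrome oxidase subunit of muscle and brown fat, rose with CL by 0.85 (adjusted p = 8.57e-04) and not detectably with C-3BO (0.02, adjusted p = 0.938), with a difference of -0.83 (SE 0.22, adjusted p = 0.0325). Most of this lay in a low saline group, with a control gap of 0.72 and a treated gap of -0.11. Mean *Cox7a1* was 314 CPM in control, 318 in C-3BO, 191 in saline and 344 in CL mice. The call for *Slc27a1* was lost in 15 and that for *Cox7a1* in 9 of the 20 fits without 1 mouse.

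Subunits of the respiratory chain lay on the same side as *Cox7a1*. All 35 tested subunits of complex I had a negative difference, with a median of -0.41, as did 41 of 44 subunits of complexes II to V, with a median of -0.28. CL raised 7 of the former and 15 of the latter, and C-3BO lowered 1 of each and raised 4 of the latter. The difference was called lower for 2 and 3 of them, 5.71% and 6.82% against 2.09% of all tested genes. *Ndufa9*, of complex I, rose by 0.58 with CL (adjusted p = 8.63e-04), had a C-3BO effect of -0.17 (adjusted p = 0.236) and a difference of -0.75 (SE 0.15, adjusted p = 0.00688). *Cox7c* had a difference of -1.08 (SE 0.28, adjusted p = 0.0328), *Atp5h* of the ATP synthase -0.65 (SE 0.17, adjusted p = 0.0331) and *Ndufs7* -0.59 (SE 0.17, adjusted p = 0.0479). The control gap was larger than the treated gap for *Ndufa9* (0.56 against -0.19), *Atp5h* (0.49 against -0.16) and *Ndufs7* (0.43 against -0.15). For *Cox7c* the treated gap was the larger (-0.97 against 0.11). Of the 20 fits without 1 mouse, *Cox7c* lost its call in 9, *Atp5h* in 10 and *Ndufs7* in 13. With the muscle score as a covariate the medians were -0.43 and -0.29 and the counts 2 and 3 again. The counts were 8 and 10 without C-3BO replicate 3, 6 and 7 without saline replicate 5 and 4 and 5 without control replicate 2. Without any of 13 other mice the count for complex I was 1, and without any of 9 other mice that for complexes II to V was 0 or 1. None of 76 mitochondrial and 70 cytosolic ribosomal protein genes was called by edgeR, 11 and 2 had an unadjusted p under 0.05, and DESeq2 called 1 mitochondrial gene.

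Of 36 genes of glucose use 13 rose with CL, and 9 rose and 4 fell with C-3BO. In the difference 2 were called lower, 5.56% against 2.09% of all tested genes. They were the glycolytic aldolase *Aldoc* (-2.55, SE 0.52, adjusted p = 0.00779) and the insulin-responsive glucose transporter *Slc2a4* (-0.77, SE 0.20, adjusted p = 0.0328). The count was 1 without control replicate 3, C-3BO replicate 1 or 4, saline replicate 1 or CL replicate 1 or 2, 4 without saline replicate 5 and 6 with library totals. In the list of 11 creatine and calcium cycling genes, 2 were called lower and 1 higher (2.09% and 2.33% over all tested genes). *Ckb*, the brain-type creatine kinase, went from 79.5 ± 23.1 to 33.8 ± 5.50 CPM with C-3BO and was at 40.9 ± 18.6 in saline and 63.4 ± 25.1 in CL mice (SD, n = 5). It fell by 1.24 with C-3BO (adjusted p = 0.00199), its CL effect was 0.63 (adjusted p = 0.133), and the difference was -1.86 (SE 0.39, adjusted p = 0.00931). *Slc6a8*, the creatine transporter, had -1.24 (SE 0.29, adjusted p = 0.0163), and *Alpl*, a phosphatase placed in this cycle, 0.82 (SE 0.23, adjusted p = 0.0456), a call lost in 17 of the 20 fits without 1 mouse.

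The list with the largest share of lower calls was the cell cycle. Of its 33 tested genes 9 were called lower in the difference and none higher, 27.3% against 2.09% of all genes, and all 33 had a negative value, with a median of -1.37. C-3BO lowered 21 of them (median -1.21), whereas CL lowered none and raised 1 (median 0.14). *Mki67* (NM_001081117, chr7:142881471-142908062), a protein of dividing cells, was at 10.2, 23.9, 13.01, 8.81 and 9.36 CPM in control and at 2.87, 2.95, 2.56, 3.97 and 2.43 CPM in C-3BO mice. In saline mice it was at 4.65, 8.91, 11.3, 2.14 and 3.92 CPM and in CL mice at 3.14, 6.18, 9.63, 11.3 and 6.62 CPM. C-3BO and control mice did not overlap, and the injected groups did. The C-3BO effect was -2.13 (adjusted p = 4.71e-04), the CL effect 0.26 (adjusted p = 0.693) and the difference -2.39 (SE 0.55, adjusted p = 0.0161). A part of it sat between the control groups, with a control gap of 1.08 and a treated gap of -1.32. *Top2a* (NM_011623, chr11:98854261-98885503), the topoisomerase of dividing cells, was at 5.00, 8.49, 8.74, 5.46 and 4.12 CPM in control and 1.15, 1.97, 1.34, 1.05 and 0 CPM in C-3BO mice. In saline mice it was at 4.55, 3.82, 6.02, 1.85 and 2.16 CPM and in CL mice at 1.85, 2.92, 6.66, 8.54 and 4.68 CPM. Control and C-3BO mice again did not overlap. The difference was -2.93 (SE 0.65, adjusted p = 0.0138), with a control gap of 0.79 and a treated gap of -2.14.

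*Uhrf1*, which keeps DNA methylation through replication, had the lowest p of the list (-1.73, SE 0.27, adjusted p = 0.0012). The kinase *Cdk1*, which drives mitosis, had -2.27 (SE 0.58, adjusted p = 0.0296) and the spindle gene *Nusap1* -1.39 (SE 0.36, adjusted p = 0.031). Depth was a limit here, since C-3BO mice held 22 counts of *Cdk1* and 48 of *Top2a* in all 5 libraries together. The count of 9 called genes was 3 without C-3BO replicate 5 or saline replicate 1, 4 without control replicate 2 and 5 without C-3BO replicate 2, saline replicate 4, CL replicate 4 or CL replicate 5. It was 15 with DESeq2 and 10 with the muscle score. In bulk tissue, fewer dividing cells and less of these RNAs per cell cannot be told apart. None of 30 macrophage, 20 endothelial or 11 lymphocyte markers was called in the difference by edgeR or DESeq2. At an unadjusted p under 0.05 there were 1, 3 and 0, and the medians were -0.05, -0.02 and -0.09. Of 19 fibroblast and preadipocyte markers 1 was called lower and 1 higher (2.09% and 2.33% over all tested genes).

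**Figure D4:**
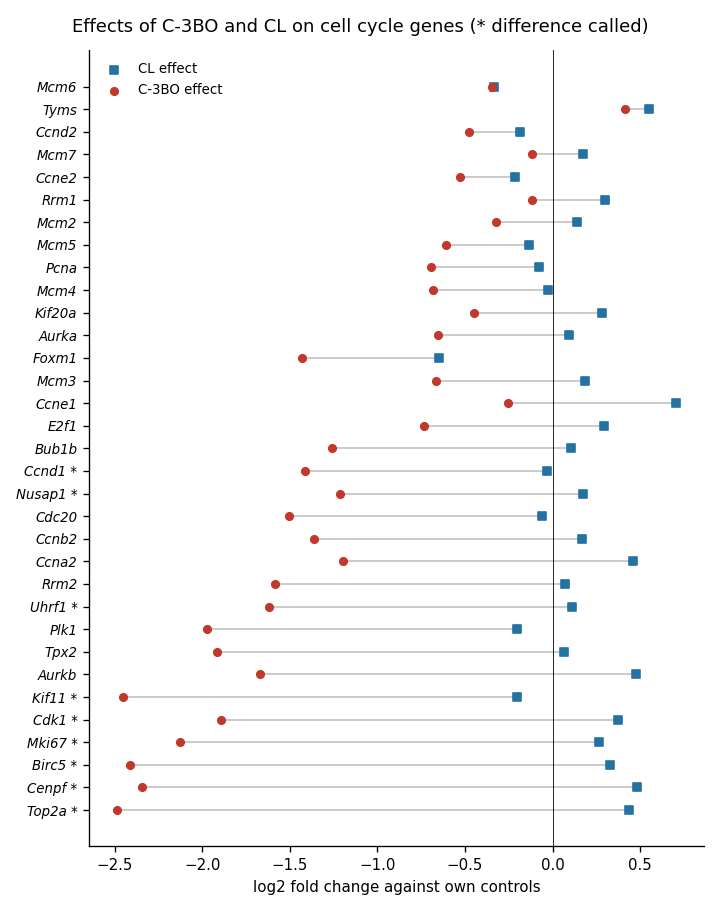
C-3BO effects (red circles) and CL effects (blue squares), as log2 fold changes against each cohort's own controls, for the 33 tested members of the cell cycle list, ordered by their difference, with a star where the difference was called. All 33 red circles lie to the left of the blue squares, and 9 genes carry a star.

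Promoters of the cell cycle list share short sequence features. Capitals in the 250 bases before the start sites of *Top2a* (chr11:98885504-98885753) and *Mki67* (chr7:142908063-142908312), both read on the minus strand of mm9, mark CCAAT and TTTGAA on either strand, the core letters of the CCAAT box and of the cell cycle homology region known from genes of mitosis.
Top2a: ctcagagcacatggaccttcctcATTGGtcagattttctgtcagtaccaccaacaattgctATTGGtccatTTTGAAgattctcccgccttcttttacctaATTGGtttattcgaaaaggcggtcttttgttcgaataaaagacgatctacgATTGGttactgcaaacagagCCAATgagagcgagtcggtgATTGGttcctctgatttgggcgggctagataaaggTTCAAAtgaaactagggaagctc
Mki67: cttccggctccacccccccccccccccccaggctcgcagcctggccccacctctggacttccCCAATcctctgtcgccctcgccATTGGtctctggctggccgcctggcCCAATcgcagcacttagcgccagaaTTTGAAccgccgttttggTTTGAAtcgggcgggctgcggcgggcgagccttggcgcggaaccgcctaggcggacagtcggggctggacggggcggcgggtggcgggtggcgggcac
*Top2a* had 6 matches of CCAAT and 2 of TTTGAA, and *Mki67* 3 and 2. On either strand, CCAAT was found in 78.8% (26 of 33) of the stretches of the list against 35.2% of the tested genes and 35.5% of all, and TTTGAA in 30.3% (10 of 33) against 10.1% and 13.6%. Of the 9 called members, 6 had CCAAT and 4 had TTTGAA. Over all 269 genes with a lower difference, CCAAT was found in 42.4%, and over the 300 with a higher one in 32%. The letters are fixed by the choice of the list, whatever the groups did. They are therefore no evidence on C-3BO against CL, nor of binding.

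*Cd34*, a surface protein of adipocyte progenitors and endothelial cells, was at 103, 129, 89.9, 102 and 65.7 CPM in control mice and at 29.1, 32.6, 57.2, 41.0 and 41.1 CPM in C-3BO mice. In saline mice it was at 58.4, 90.6, 94.6, 50.9 and 44.4 CPM and in CL mice at 64.1, 53.9, 76.8, 89.4 and 101 CPM. C-3BO and control mice did not overlap, and the injected groups did. *Cd34* fell with C-3BO by 1.29 (adjusted p = 2.70e-04), and the difference was -1.48 (SE 0.32, adjusted p = 0.0116). *Gsn*, an actin-severing protein also high in fibroblasts, had a difference of 1.06 (SE 0.30, adjusted p = 0.0457), lost in 15 of the 20 fits without 1 mouse. Among 29 collagen genes 2 were called lower (2.09% over all tested genes), *Col28a1* (-2.79, SE 0.60, adjusted p = 0.0118) and *Col4a1* of basement membranes (-0.72, SE 0.17, adjusted p = 0.0171). The lysyl oxidase relative *Loxl1*, which builds elastic fibres, had 1.12 (SE 0.25, adjusted p = 0.014).

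The lowest difference of all belonged to *Ptgds* (NM_008963, chr2:25322232-25325269), the lipocalin-type prostaglandin D synthase. Control mice had 199.7, 307, 35.9, 41.0 and 117 CPM and C-3BO mice 3.87, 5.25, 4.90, 3.03 and 5.13 CPM. Saline mice had 6.93, 5.30, 8.39, 6.91 and 5.59 CPM and CL mice 14.4, 24.5, 9.28, 14.4 and 9.13 CPM. The control mice were the high group, and saline mice were close to C-3BO mice. The C-3BO effect was -4.98 (adjusted p = 7.26e-07), the CL effect 1.10 (adjusted p = 0.124) and the difference -6.08 (SE 0.68, adjusted p = 4.03e-05), of which a control gap of 4.40 made up most. *Kng2* (NM_001102409), a kininogen gene, had the lowest p, with 223, 220, 226, 209 and 212 CPM in control, 57.4, 59.5, 60.8, 43.6 and 49.9 in C-3BO, 124, 97.7, 104, 132 and 80.8 in saline and 112, 108, 80.1, 93.4 and 108 in CL mice. The C-3BO mice were all below and the control mice all above the injected mice, and the difference was -1.91 (SE 0.17, adjusted p = 3.46e-06).

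Other genes with a strongly lower difference were *Fgf1*, a growth factor, and *Gadd45b*, a gene of the stress response. *Fgf1* was at 82.3 ± 16.2 CPM in control, 11.8 ± 3.68 in C-3BO, 33.5 ± 10.8 in saline and 34.6 ± 16.6 in CL mice (SD, n = 5), with a difference of -2.85 (SE 0.43, adjusted p = 8.12e-04). *Gadd45b* was at 24.8 ± 9.04, 2.29 ± 0.490, 15.5 ± 4.47 and 11.3 ± 8.06 CPM in the same order, with a difference of -2.96 (SE 0.52, adjusted p = 0.00254). *Clic3*, an intracellular chloride channel gene, had -3.01 (SE 0.64, adjusted p = 0.0105). *Phyhip* and *Fras1* also passed, but C-3BO mice held only 9 and 8 counts of them in 5 libraries, and their fitted differences of -3.69 and -3.16 depend on the prior count. *Fras1* lost its call in 14 of the 20 fits without 1 mouse and *Phyhip* in 3. In the integrated stress response list 2 of 23 were called lower and 1 higher (2.09% and 2.33% over all tested genes). *Pck2*, the mitochondrial form of phosphoenolpyruvate carboxykinase, fell from 68.5 ± 20.4 to 15.8 ± 4.83 CPM with C-3BO and was at 46.9 ± 4.99 in saline and 32.1 ± 7.06 in CL mice (difference -1.57, SE 0.28, adjusted p = 0.00254). *Ddit3*, the transcription factor CHOP, had -1.13 (SE 0.21, adjusted p = 0.00483), and *Sesn2*, a stress-induced inhibitor of mTORC1 signalling, 2.07 (SE 0.39, adjusted p = 0.00491).

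Of the genes that moved with CL and not detectably with C-3BO, *Shmt1* (NM_009171), the cytosolic serine hydroxymethyltransferase of one-carbon metabolism, had the lowest p. Control mice had 64.2, 63.7, 57.9, 66.5 and 69.0 CPM and C-3BO mice 62.8, 50.9, 63.8, 55.5 and 53.2 CPM. Saline mice had 31.6, 46.8, 36.8, 35.1 and 47.7 CPM and CL mice 87.3, 82.3, 67.8, 75.7 and 86.7 CPM. The saline and CL mice did not overlap, and control and C-3BO mice overlapped. The CL effect was 1.01 (adjusted p = 6.34e-06), the C-3BO effect -0.17 (adjusted p = 0.262) and the difference -1.18 (SE 0.16, adjusted p = 2.21e-04). *Gmnn*, the replication licensing inhibitor geminin, likewise had a CL effect of 0.87 and a difference of -1.31 (SE 0.25, adjusted p = 0.00595), with a control gap of 0.81 and a treated gap of -0.50.

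Falls with CL that C-3BO did not show included *Nnat*, neuronatin, a gene of white more than of brown fat that overlaps *Blcap* on the opposite strand. It was at 27.5, 63.4, 27.9, 17.9 and 22.1 CPM in saline and 10.99, 8.20, 9.20, 6.37 and 6.46 CPM in CL mice, which did not overlap. Control mice had 32.5, 17.4, 9.58, 18.5 and 33.6 CPM and C-3BO mice 24.2, 24.4, 39.99, 23.4 and 27.8 CPM. The CL effect was -1.95 (adjusted p = 5.29e-04), the C-3BO effect 0.33 (adjusted p = 0.453) and the difference 2.28 (SE 0.45, adjusted p = 0.00711). *Cfd*, the secreted protease adipsin, fell with CL from 2193 ± 607 to 778 ± 108 CPM and stood at 751 ± 442 in control and 788 ± 182 in C-3BO mice (SD, n = 5). Saline mice were thus the high group, and the difference of 1.57 (SE 0.43, adjusted p = 0.0413) was lost in 15 of the 20 fits without 1 mouse. *Pim3*, a kinase (1.35, SE 0.22, adjusted p = 0.00151), *Sctr*, the secretin receptor (1.35, SE 0.26, adjusted p = 0.00621), and *Hmgn1*, a nucleosome binding protein (0.69, SE 0.13, adjusted p = 0.00621), also fell with CL alone. Saline mice had the highest mean of these genes too. Their control gaps were -1.05, -1.60 and -0.50, against treated gaps of 0.30, -0.25 and 0.19.

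Further genes with a large higher difference rose with C-3BO and had no detectable CL effect. They were *Fam83a* (3.06, SE 0.69, adjusted p = 0.0141, with a control gap of -2.66 and a treated gap of 0.39), *Mmd2* (3.05, SE 0.44, adjusted p = 5.18e-04), *Tc2n* (2.70, SE 0.62, adjusted p = 0.0152) and *Ccrn4l*, the circadian phosphatase nocturnin (2.51, SE 0.66, adjusted p = 0.0328, lost in 9 of the 20 fits without 1 mouse). *Epb4.1l4b* (2.34, SE 0.47, adjusted p = 0.00777) and *Nap1l5*, which overlaps *Herc3* on the opposite strand (1.83, SE 0.25, adjusted p = 2.92e-04), did the same. On the lower side *Tmem38b*, a cation channel of the endoplasmic reticulum, fell with C-3BO by 1.10 and had a difference of -1.25 (SE 0.16, adjusted p = 2.21e-04).

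Genes that rose with C-3BO and fell with CL, each effect passing its own test, numbered 13. *Zfp36l2*, which destabilizes mRNAs, was at 81.7, 70.2, 64.2, 71.2 and 58.2 CPM in control and 134, 179, 115, 202 and 167 CPM in C-3BO mice. It was at 191, 197, 230, 263 and 174 CPM in saline and 122, 110, 161, 156 and 132 CPM in CL mice. Neither cohort's groups overlapped, and the difference was 1.83 (SE 0.21, adjusted p = 4.03e-05), of which the control gap was -1.61 and the treated gap 0.23. *Ptrf*, which builds caveolae, went the same way by less (0.63 and -0.27, difference 0.90, SE 0.11, adjusted p = 1.96e-04), as did the transcriptional repressor *Zfp703* (0.63 and -0.88, difference 1.51, SE 0.20, adjusted p = 2.67e-04, control gap -1.29). *BC029214* fell with C-3BO by 1.53 and rose with CL by 0.56 (difference -2.09, SE 0.20, adjusted p = 6.33e-06).

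**Figure D5:**
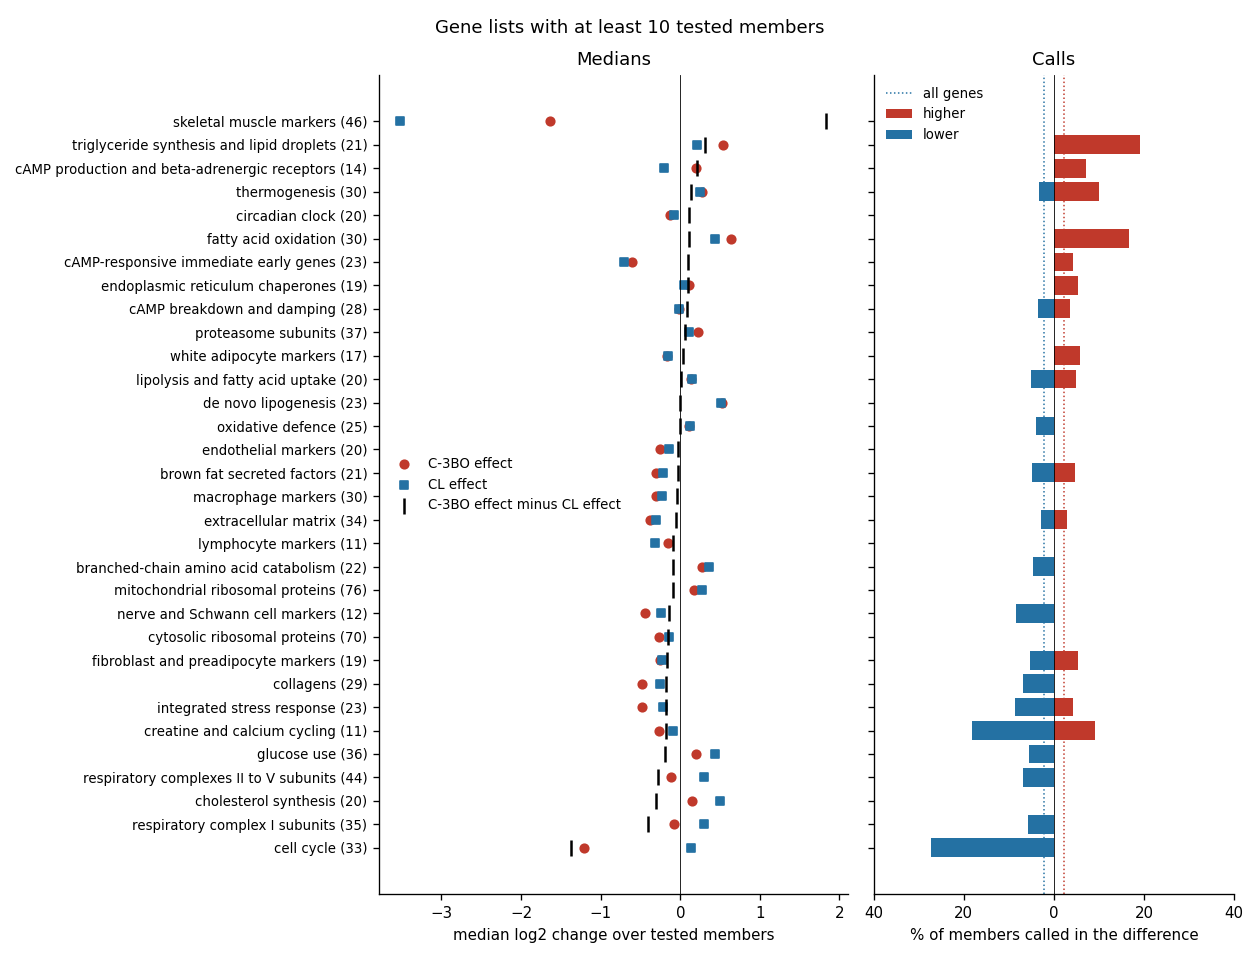
Left, median log2 C-3BO effect (red circles), CL effect (blue squares) and difference (black bars) over the tested members of each list, with the number tested in brackets. Right, percent of members called higher (red) or lower (blue) in the difference, with dotted lines at the shares over all tested genes, 2.33% and 2.09%. The cell cycle list has the lowest median (-1.37) and the largest share called lower (27.3%), muscle markers have the highest median (1.84) with none called, and lipogenesis genes have close medians for the C-3BO and CL effects (0.53 and 0.51).

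The remaining lists held few calls, to be read against 2.33% higher and 2.09% lower over all tested genes. In such short lists 1 lower call made up 2.94% of the extracellular matrix genes and 8.33% of the nerve and Schwann cell markers. The brown fat secreted factors had 1 of 21 lower, *Ptgds*, and 1 higher, *Cfd*, the extracellular matrix 1 of 34 lower, *Col4a1*, and 1 higher, *Loxl1*, and the white adipocyte markers 1 of 17 higher, *Nnat*. Branched-chain amino acid catabolism had 1 of 22 lower, *Mcee* (-0.84, SE 0.18, adjusted p = 0.0125), oxidative defence 1 of 25 lower, the peroxiredoxin *Prdx6* (-0.59, SE 0.14, adjusted p = 0.0233), and nerve and Schwann cell markers 1 of 12 lower, the myelin gene *Mal* (-1.58, SE 0.39, adjusted p = 0.0252). Of the 19 endoplasmic reticulum genes only *Syvn1*, which tags misfolded proteins for degradation, was called, at 0.54 (SE 0.13, adjusted p = 0.0261). No gene was called by edgeR among those tested of cholesterol synthesis (20), the circadian clock (20), proteasome subunits (37) and histones (7), of which 3, 4, 3 and 0 had an unadjusted p under 0.05 and DESeq2 called 2 of cholesterol synthesis. Only 4 of the 29 liver markers had enough counts to be tested and none was called, the only red blood cell marker tested was not called, and no epididymal marker had enough counts.

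The same difference was computed in the HFD mice of both cohorts, which share no animal with the chow mice. Because the cohorts are the same, agreement between the diets cannot tell C-3BO against CL from cohort. Liver RNA was present in part of the HFD libraries. *Alb* was at 73.0 to 195 CPM in all HFD saline and CL libraries and at 264 and 279 CPM in HFD C-3BO replicates 4 and 5, but at most 1.58 CPM in the other HFD libraries. The smallest HFD saline library held only 849126 counts. On HFD 86 of 12388 tested genes were called higher (0.694%) and 187 lower (1.51%). Of the 300 genes higher on chow 299 were tested on HFD, and 246 (82.3%) had a positive difference there, against 49.8% of the genes tested on both diets. Of the 269 lower genes 263 were tested, and 216 (82.1%) had a negative difference, against 50.2%. Without HFD C-3BO replicates 4 and 5 the shares were 86.3% and 83.1%, against 53.1% and 47.0%. On HFD, 19 (6.4%) and 35 (13.3%) of these genes were called in the same direction and none in the opposite one. Over the genes tested on both diets, 0.563% were called higher on HFD and 1.51% lower. Without HFD C-3BO replicates 4 and 5 the counts were 10 (3.34%) and 16 (6.0%), against 0.368% and 0.72%, again with none opposite. *Rgs2* had a difference of -1.40 on HFD (adjusted p = 0.0163), *Top2a* of -2.05 (adjusted p = 0.0306), *Mki67* of -2.13 (adjusted p = 0.022), *Cd34* of -1.75 (adjusted p = 4.57e-04) and *Cfd* of 1.51 (adjusted p = 0.0499). Without the HFD C-3BO replicates 4 and 5 the first 3 no longer passed (adjusted p of 0.0596, 0.0698 and 0.0824), and *Cd34* (-1.70, adjusted p = 0.00539) and *Cfd* (1.86, adjusted p = 0.0124) did. *Ptgds*, which had the lowest difference on chow, was at -0.45 on HFD (adjusted p = 0.681), *Ehhadh* at 1.62 (adjusted p = 0.282) and *Shmt1* at -0.18 (adjusted p = 0.766). With all HFD libraries, the sign was opposite to chow for *Acsl1* (-0.25), *Crat* (-0.14), *Bscl2* (-0.06), *Cox7a1* (0.14), *Ndufs7* (0.32) and *Atp5h* (0.28). It was the same for *Acaa1b* (0.42), *Fitm2* (0.23), *Plin5* (0.31), *Dgat1* (0.27), *Ndufa9* (-0.08) and *Cox7c* (-0.30). None of these lipid and respiratory genes was called on HFD.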

How the data were processed

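Poly(A) RNA of BAT was sequenced from 40 mice, of which the 20 on chow were used. The authors aligned reads to mm9 by STAR and counted them over RefSeq exons with HOMER and iRNA-seq; the deposited values are these raw counts, 1 whole number per gene and mouse. Versions and the strand setting are not given in the sources used here, so reads of overlapping genes on opposite strands cannot be told apart.

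Genes were filtered by filterByExpr (minimum count 10) of edgeR 4.0.16 (R 4.3.3, limma 3.58.1), scaled by TMM and fitted with 1 mean per group by the quasi-likelihood method. P-values were adjusted by Benjamini-Hochberg over all 12859 tested genes, and an adjusted p under 0.05 was called. SE is the size of a log2 value over the root of its F statistic, and CPM used TMM-scaled totals. Groups came from the sample labels.

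Named are *Gpr3*; per direction the 10 called genes of largest difference and the 5 of lowest p, called also with the muscle covariate and at a mean of 5 CPM or more in a group; up to 5 called genes per list and per class; and fixed defining genes. The members and lists were chosen with earlier results of these data known. Alternatives were library totals, RLE factors, no filter, 10 counts in every library, all 40 libraries, DESeq2 1.42.0, a replicate block, the muscle covariate and leaving out each mouse. The HFD comparison was chosen after seeing the data. Promoters were read from the mm9 genome at the starts of the RefSeq genes. Figures were drawn with Python 3.11.15 and matplotlib 3.10.9. Physiological measurements and other tissues were not analysed here. Some genes that the naming rule selects are not reported here.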

Additional observations from a re-analysis of the deposited data

Results flagged for a closer look

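Each of the 4 groups was screened for a mouse whose distance to its nearest neighbour was large against the range of the group (Dixon's critical value of 0.71 for 5 mice), over 92 groups of shown genes, and 7 were found. Chance gives about 1 in 20. In CL replicate 3, *Gpr3* was at 8.67 CPM and *Ehhadh* at 258.5 CPM, both above the other CL mice, and the macrophage gene *Emr1* was at 32.4 CPM against 3.15 to 7.39 CPM in the other CL mice, whose part in these values was not tested. Without this mouse the difference was 4.32 for *Ehhadh* (adjusted p = 2.13e-04).

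Saline replicate 3 had a low *Ucp1* of 1201 CPM, and without it the difference of *Ucp1* was 0.58 (adjusted p = 0.413). C-3BO replicate 1 had the highest *Acaa1b*, 180.7 CPM, and without it the difference was 1.24 (adjusted p = 0.0222). *Nnat* was high in C-3BO replicate 3, at 39.99 CPM, and in saline replicate 2, at 63.4 CPM, and its difference was 2.11 (adjusted p = 0.0124) and 1.86 (adjusted p = 0.00761) without each. Control replicate 2 had 23.9 CPM of *Mki67*, and without it the difference was -2.07 (adjusted p = 0.029).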

How the results depend on the processing

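No value of a named gene that was called in the difference turned its sign in any of the 28 alternatives; of 80 such genes 52 kept their call in all of them. The 300 genes with a higher difference became 153 with library totals, and 158 to 348 with 1 mouse left out (194 without control replicate 4, 164 without C-3BO replicate 4, 174 without saline replicate 1, 188 without saline replicate 4, 171 without CL replicate 1 and 158 without CL replicate 2). The 269 with a lower one became 452 with all 40 libraries and 447 with DESeq2, and 175 to 320 with 1 mouse left out (175 without saline replicate 1). DESeq2 called 430 higher, and 299 of the 300 and 266 of the 269 genes were among its calls. Library totals gave 945 higher and 3785 lower genes for the C-3BO effect and 572 and 1476 for the CL effect. With 1 mouse left out, the C-3BO effect called 1660 to 2090 higher and 1544 to 2024 lower, and the CL effect 700 to 1216 higher and 329 to 848 lower (420 without CL replicate 1, 423 without CL replicate 2 and 329 without CL replicate 4). The cause of these shifts was not tested.

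The labels do not say that a replicate number marks a shared litter or day, and not every same-numbered pair correlated above 0.1: their deviations correlated at -0.06 to 0.47 between control and C-3BO, where 3 of 5 control mice correlated best with the C-3BO mouse of their number, and at -0.22 to 0.26 between saline and CL, where 1 of 5 saline mice did so with CL mice. With the replicate number as a block, 260 genes were higher and 243 lower, of which 219 and 202 were called without it. The block lost the calls of 12 named genes, of which *Acsl1* (adjusted p = 0.0657) kept its call in all fits without 1 mouse, and the difference of *Gpr3* passed (6.33, adjusted p = 0.0213), as it did with DESeq2 (6.16, adjusted p = 4.93e-04).

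Effects come from 5 mice each, and for genes near the limit of 3 counts a smaller difference was not detectable at this depth.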

Other observations

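*Ptgds*, *Clic3* and *BC029214*, which all had a lower C-3BO effect, are neighbours on chromosome 2 of mm9, at chr2:25322232-25325269, chr2:25312363-25314292 and chr2:25315008-25316614. Their differences were -6.08, -3.01 and -2.09, and their C-3BO effects -4.98, -2.11 and -1.53. This closeness was noticed after the values were seen, and no test of neighbouring genes was made.

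A few genes passed the test of the difference although neither effect passed by itself. With C-3BO and CL effects of opposite sign, *Abi3* (0.32 and -0.35, difference 0.67, SE 0.17, adjusted p = 0.0296) and *B4galt1* (0.26 and -0.29, difference 0.55, SE 0.14, adjusted p = 0.0313) were higher, and *Slc25a5*, an ADP/ATP carrier of mitochondria (-0.24 and 0.29, difference -0.53, SE 0.14, adjusted p = 0.0328), *Etv6* (-0.35 and 0.37, difference -0.72, SE 0.19, adjusted p = 0.0326) and *Cwc27* (-0.27 and 0.32, difference -0.59, SE 0.15, adjusted p = 0.0316) were lower. Genes that moved the same way in both arms by unequal amounts included *Chdh*, choline dehydrogenase (1.37 and 0.42, difference 0.95, SE 0.16, adjusted p = 0.00243), *Ttc13* (1.24 and 0.40, difference 0.84, SE 0.14, adjusted p = 0.00155) and *Lasp1*, an actin-binding protein (-1.51 and -0.41, difference -1.10, SE 0.19, adjusted p = 0.00249). For *Chdh* nearly all of the difference lay between the control groups, with a control gap of -1.02 and a treated gap of -0.07. The treated gap was the larger for *Ttc13* (0.74 against -0.10) and *Lasp1* (-1.02 against 0.08).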
